A study of Mus musculus with 34 samples.

Results

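The genes described here are 8 of the sarcoplasmic reticulum calcium-cycling machinery of the heart: Atp2a2, Pln and Sln, which make up the calcium pump and its inhibitors, and Ryr2, Trdn, Casq2, Hrc and Jph2, which make up the release channel and the proteins around it. They were chosen by name, as the genes whose symbol in the array's annotation matched 1 of these 8. They are 8 of 22804 named genes and are read by 11 of 55681 probes, with 3 probes for Trdn, 2 for Atp2a2 and 1 for each other gene. All 8 genes passed the filter on dim probes, which asks for a signal well above background on each array of some group.

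In a heart muscle cell the sarcoplasmic reticulum stores the calcium that drives contraction. A small calcium inflow through the surface membrane opens the ryanodine receptor, stored calcium leaves and the sarcomere shortens, and the pump SERCA2 then returns calcium to the store so that the cell relaxes. Phospholamban restrains the pump until it is phosphorylated during adrenergic stimulation, which makes it a main control point of the heart's relaxation and reserve, and sarcolipin is a related inhibitor that in the mouse heart is best known from the atria.

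RNA was measured on 34 single-colour Agilent arrays, 2 for each of 17 groups of mouse cells of CD1 strain. All groups, the controls included, carried the aMHC-GFP genotype, a reporter driven by the promoter of the alpha myosin heavy chain gene. Primary cardiac fibroblasts (neoCF) and cardiomyocytes (neoCM) were taken without culture from pups of postnatal day 1.5. Induced cardiomyocytes (iCM) were taken 4 weeks after such fibroblasts received a retrovirus carrying Mef2c, Gata4 and Tbx5 on 1 transcript (MGT). Cardiomyocytes were also differentiated from 2 lines of induced pluripotent stem cells, made from cardiac fibroblasts with Oct4, Sox2, Klf4 and cMyc. Line 1 was sampled on day 13 (iPSC1-CM D13). Line 2 was sampled on day 9 and, after long-term culture, on day 29 (iPSC2-CM D9 and D29). The comparisons with each line thus speak for that line alone. A time course held the starting fibroblasts (CF D0) and fibroblasts on days 3, 5, 7, 10 and 14 after MGT or after a LacZ control. No cell sorting is described, and the labels do not say that the 2 arrays of a group came from separate cultures or animals, so p-values measure the spread between these arrays, which may be technical.

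Each value below is a level on the log2 scale relative to the 75th percentile of its own array, so a level of 0 lies at that percentile and a step of 1 is a 2-fold difference. Levels of different genes are read by different probes and are not compared with each other. A change was called when limma's Benjamini-Hochberg adjusted p over 19412 genes was under 0.05 and the change at least 2-fold. Each change is given ± its standard error, for 2 arrays against 2. In these bulk samples, fewer cells that express a gene and less of its RNA in each cell cannot be told apart.

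Between 28715 and 44881 of the 59305 spots of an array were well above background. The 2 arrays of a group correlated over genes at 0.984 to 0.997 in 16 groups and at 0.895 in iPSC2-CM D29, where 8214 genes lay at least 2-fold apart and the median of 8 fibroblast markers was 4.03 on 1 array and -1.70 on the other. Results that rest on that group are given below with each array. All 11 cardiomyocyte markers were well above background in neoCM, but they were also in neoCF (median 3.76 and 3.55, against 7.99 and 8.24 in neoCM), and all 8 fibroblast markers were well above background in neoCM (median 6.12 and 6.42, against 6.90 and 7.01 in neoCF). Neither primary preparation was therefore free of the other's markers. neoCM and neoCF lay on different slides scanned on different days. So did iCM and neoCF, the iPSC groups and neoCM, and the MGT groups and neoCM. Scan day and group cannot be told apart in these comparisons. MGT and LacZ shared a slide on days 3 to 10. On day 14 they lay on different slides of the same scan day, so there the group and the slide cannot be told apart.

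The probe sequences decide what part of a gene a value speaks for, which matters where a gene has more than 1 transcript. Triadin is the clearest case, since its transcripts share a beginning and end differently. Its probes, in order along the gene on mouse build mm9 (plus strand), were probe 1 at chr10:32915796-32915855, which the annotation assigns to the RefSeq transcript, probe 2 at chr10:32919981-32920040, which it assigns to other transcript records and to no RefSeq transcript, and probe 3 at chr10:33194264-33194323, far downstream and again assigned to the RefSeq transcript. For Atp2a2 the probe at chr5:122910660-122910719 (minus strand) is assigned to both of its RefSeq coding variants.
Trdn probe 1: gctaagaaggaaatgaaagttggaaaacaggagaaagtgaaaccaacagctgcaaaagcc
Trdn probe 2: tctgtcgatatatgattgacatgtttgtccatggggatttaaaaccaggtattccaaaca
Trdn probe 3: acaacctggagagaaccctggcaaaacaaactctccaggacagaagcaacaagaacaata
Atp2a2 probe: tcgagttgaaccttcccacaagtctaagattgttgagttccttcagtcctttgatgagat

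The letters upstream of the genes are shown for a pair of genes that were high from the first MGT day, Casq2 and Ryr2, and a pair that came up later, Pln and Hrc. They are the 250 bases before the RefSeq start on build GRCm38.p6, with motif matches in capitals. The table of promoters held 6 starts of 5 of the 8 genes, and Sln, Atp2a2 and Trdn were not matched.
Casq2, chr3:102086165-102086414, plus strand: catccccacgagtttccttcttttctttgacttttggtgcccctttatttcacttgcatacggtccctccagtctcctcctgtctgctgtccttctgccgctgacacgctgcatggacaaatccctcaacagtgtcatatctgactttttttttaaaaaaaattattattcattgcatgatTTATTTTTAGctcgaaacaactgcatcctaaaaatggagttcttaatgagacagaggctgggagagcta
Ryr2, chr13:12106946-12107195, minus strand: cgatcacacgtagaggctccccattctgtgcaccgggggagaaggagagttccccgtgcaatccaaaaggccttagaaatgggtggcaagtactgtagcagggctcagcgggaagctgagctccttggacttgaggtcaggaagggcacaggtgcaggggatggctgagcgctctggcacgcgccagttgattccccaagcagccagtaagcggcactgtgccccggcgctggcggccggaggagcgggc
Pln, chr10:53337436-53337685, plus strand: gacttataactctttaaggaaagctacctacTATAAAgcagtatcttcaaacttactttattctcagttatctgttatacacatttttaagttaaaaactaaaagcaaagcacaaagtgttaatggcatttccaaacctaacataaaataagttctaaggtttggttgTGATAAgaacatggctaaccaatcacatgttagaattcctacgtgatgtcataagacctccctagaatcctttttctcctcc
Hrc, chr7:45335019-45335268, plus strand: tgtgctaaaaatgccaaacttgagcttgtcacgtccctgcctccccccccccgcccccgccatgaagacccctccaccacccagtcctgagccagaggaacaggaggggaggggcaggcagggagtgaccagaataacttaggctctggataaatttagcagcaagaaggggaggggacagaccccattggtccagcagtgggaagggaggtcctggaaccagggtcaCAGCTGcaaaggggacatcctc

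Both strands were searched for the GATA letters TGATAA, the T-box letters AGGTGT, the muscle E-box CAGCTG, the TATA box TATAAA, and the MEF2 and serum response (CArG) consensus motifs. Pln held 1 GATA match, beginning 82 bases before its start, and 1 TATAAA match beginning 219 bases before it. Hrc held 1 E-box, beginning 22 bases before its start, and the 2 overlapping Jph2 windows share 1 E-box. Casq2 held 1 match to the MEF2 consensus, on the other strand, beginning 69 bases before its start. Ryr2 held no match to any of the 6 motifs in this window, and no window of the 5 genes held the T-box or CArG motif. Over 32851 promoter windows of the same length, TGATAA occurred in 7.9%, AGGTGT in 11.8%, CAGCTG in 13%, TATAAA in 12.4%, the MEF2 consensus in 1.7% and the CArG consensus in 1.5%. A match here describes letters and does not show binding, and a missing match says nothing of sites elsewhere.

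In the primary cells all 8 genes were called higher in neoCM than in neoCF, where 31.7% of all genes tested were called in either direction. The median change of the 8 was 5.10, against -0.06 over all genes tested. Atp2a2, which encodes the pump SERCA2, stood at 6.63 and 6.83 in neoCM and at 2.36 and 2.07 in neoCF, a change of 4.51 ± 0.54 (22.8-fold, adjusted p = 9.7e-07). Pln, which encodes phospholamban, stood at 5.50 on both neoCM arrays and at 0.42 and -0.01 in neoCF, a change of 5.30 ± 0.48 (39.4-fold, adjusted p = 2.9e-08). Sln, which encodes sarcolipin, had the widest gap of the 8, from 1.08 and 0.18 in neoCF to 7.22 and 7.15 in neoCM, a change of 6.56 ± 0.56 (94.4-fold, adjusted p = 1.1e-08). The pump and both inhibitors thus lay far above the fibroblast preparation, with no overlap between arrays.

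The release side followed the same pattern. Ryr2, the channel through which stored calcium leaves, was at 3.52 and 3.64 in neoCM and at -1.79 and -2.00 in neoCF (5.47 ± 0.49, 44.3-fold, adjusted p = 2.5e-08). Trdn, whose product ties the channel to the calcium-binding protein inside the store, was higher by 5.92 ± 0.58 (60.5-fold, adjusted p = 7.1e-08). Casq2, which encodes that buffer, calsequestrin, was at 5.33 and 5.49 against 0.52 and 0.50 (4.90 ± 0.21, 29.9-fold, adjusted p = 1.1e-12). Hrc, a histidine-rich calcium-binding protein of the store, was at 5.40 on both neoCM arrays against 0.64 and 0.61 (4.78 ± 0.48, 27.5-fold). Jph2, the junctophilin that holds the store against the surface membrane, changed least, from -2.66 and -2.34 to -1.15 and -0.93 (1.46 ± 0.43, 2.75-fold, adjusted p = 0.0085). The Jph2 call was lost without neoCM replicate 2 (adjusted p = 0.055) or without neoCF replicate 1 (adjusted p = 0.061).

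The cultured fibroblasts of the time course began much lower than the fresh ones. In CF D0 against neoCF, 6 of the 8 genes were lower and 1 was higher, with 34.4% of all genes called, and the median change of the 8 was -3.42. Casq2 was at -3.64 and -3.46 in CF D0 (-4.05 ± 0.21, adjusted p = 5.9e-12), Sln at -2.60 and -2.49 (-3.18 ± 0.56, adjusted p = 7.4e-05) and Hrc at -2.64 and -2.70 (-3.29 ± 0.48, adjusted p = 8.8e-06). Ryr2 and Trdn were not well above background on either CF D0 array, and were at least 11.5-fold and at least 13.1-fold lower than in neoCF (adjusted p = 5e-06 and 1.5e-06). A bound of this kind takes the higher of the gene's own value and the lowest signal well above background on each array of the dim side. It can equal the fitted change, and it holds for the main processing only. With normexp background correction, which raises dim values, Ryr2 changed by -2.06 and Trdn by -2.36. The main fit gave -3.55 and -4.59. Pln was above background on 1 of the 2 CF D0 arrays and lower by 5.21 (adjusted p = 2.5e-08). Jph2 went the other way, to -0.95 and -0.52 (1.76 ± 0.43, adjusted p = 0.0019), and Atp2a2 did not pass (-0.76 ± 0.54, adjusted p = 0.24). Cardiomyocyte markers moved with these genes: the summed signal of the 11 markers was 7.48 to 7.96 on the log2 scale in neoCF and 4.57 to 4.71 in CF D0, and their part in the result was not tested.

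**Figure D1:**
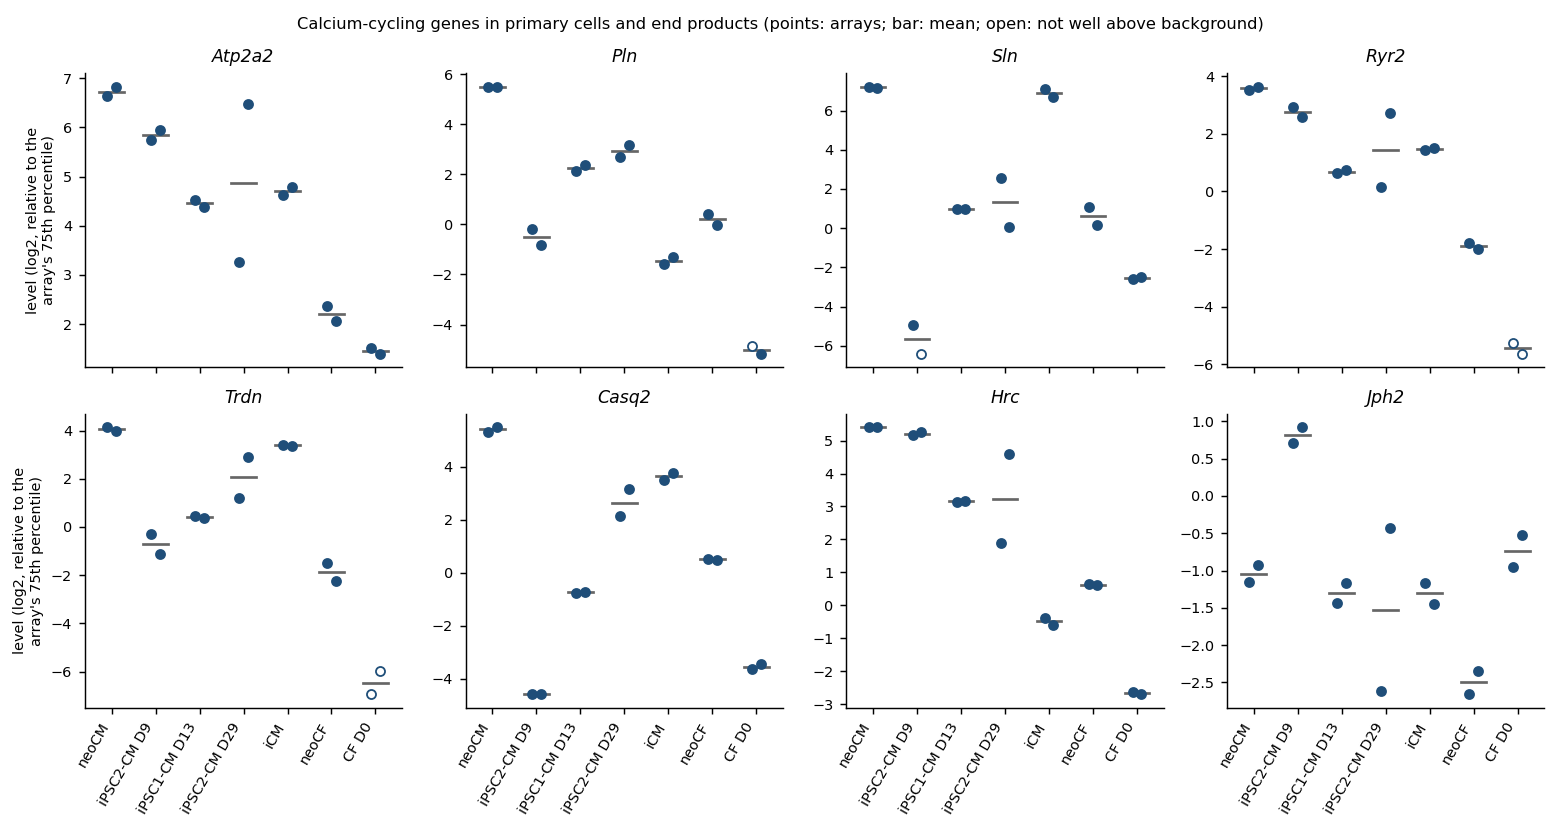
Level of each gene on every array of the primary cells and the end products, on the log2 scale relative to the array's 75th percentile; points are arrays, bars are group means and open points are not well above background. In iCM, Sln and Trdn sat near neoCM (Sln 7.09 and 6.71 against 7.22 and 7.15) while Pln (-1.59 and -1.32) and Hrc (-0.38 and -0.58) sat far below it.

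After MGT the calcium genes rose in steps. Against LacZ of the same day, 5 of the 8 were called higher on day 3, 6 on day 5, 7 on days 7 and 10 and 8 on day 14, and none was called lower on any of these days. Over all genes tested the called share was 5.04% on day 3, 8.25% on day 5, 8.78% on day 7, 8.64% on day 10 and 13.2% on day 14. The median change of the 8 went from 2.81 on day 3 through 4.19, 4.70 and 5.33 to 5.71 on day 14, against medians between -0.13 and -0.06 over all genes. The LacZ arrays are the same control for every gene of a day, and on all 10 of them Pln was not well above background.

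Ryr2, Sln, Casq2 and Trdn were the early group. Ryr2 stood at 0.58 and 0.65 on day 3 of MGT and at -4.91 and -4.88 with LacZ (5.51 ± 0.49, 45.6-fold, adjusted p = 2e-07). It then varied little, between 0.95 and 1.5 on the 8 later MGT arrays, while LacZ fell below background on every later array. In the main processing the bound on its rise was 58.1-fold on day 5, 156-fold on day 7, 189-fold on day 10 and 50.4-fold on day 14 (adjusted p = 2.6e-09 on day 14). With normexp the log2 changes on these days were smaller, at 5.45, 5.41, 5.67 and 5.0. The main fit gave 7.42, 7.28, 7.77 and 7.

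Casq2 is measured on both sides throughout, so its course can be read without bounds. It was at 2.60 and 2.56 on day 3, 4.06 and 4.05 on day 5, 4.56 and 4.39 on day 7, 4.89 and 4.79 on day 10 and 5.06 and 4.91 on day 14 of MGT. All 10 LacZ arrays lay between -2.45 and -1.74. The change over LacZ was 4.67 ± 0.21 on day 3 (25.5-fold, adjusted p = 9.5e-12) and 7.41 ± 0.21 on day 14 (170-fold, adjusted p = 4.1e-15). On day 14 the MGT arrays were just under the neoCM arrays at 5.33 and 5.49.

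Sln made the largest fitted change of the 8 on each day. It was at 3.48 and 3.32 on day 3, 6.61 and 6.57 on day 5, 7.84 and 7.77 on day 7, 8.12 and 8.02 on day 10 and 7.87 and 7.82 on day 14. From day 7 on, every MGT array was above both neoCM arrays (7.22 and 7.15). This gap was not tested, and the MGT and neoCM arrays were scanned on different days. On day 3 the change was 6.70 ± 0.56 (104-fold, adjusted p = 7.9e-08). LacZ was not above background on either array of days 5 and 10, and was above it on 1 of 2 arrays on day 14. The bound on the rise was 2270-fold on day 5 and 8310-fold on day 10 (adjusted p = 4.5e-12 and 2.1e-12), the latter equal to the fitted fold. With normexp the log2 changes on days 5 and 10 were 10.6 and 11.65, against 12.76 and 13.02 in the main fit.

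Trdn rose more gradually, from -0.74 and -0.91 on day 3 through 0.21 and -0.06 on day 5 and 2.27 and 2.24 on day 7 to 3.26 and 3.17 on day 14. The change over LacZ was 3.86 ± 0.58 on day 3 (14.5-fold, adjusted p = 0.00012) and 6.10 ± 0.58 on day 14 (68.6-fold, adjusted p = 1.6e-07). Its LacZ arrays were uneven, at -5.63 (not well above background) and -3.02 on day 10.

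The pump came up by a smaller factor from a higher base. Atp2a2 was at 3.38 and 3.31 on day 3, 3.96 and 3.87 on day 5, 5.31 and 5.22 on day 7, 5.26 and 5.15 on day 10 and 4.87 and 4.71 on day 14. LacZ arrays lay between 1.44 and 1.96. The rise was 2.44 ± 0.54 on day 5 (adjusted p = 0.0032) and 3.24 ± 0.54 on day 14 (9.45-fold, adjusted p = 0.00018). On day 3 it was 1.76 ± 0.54 with adjusted p = 0.047, and that call was lost when each of the 4 arrays was left out (1.72 to 1.80). It was also lost without the filter on dim probes (adjusted p = 0.058), with the mean of the gene's probes (0.18) and with the replicate number as a block (0.054). With slide as a block the call was lost as well (0.058). That block separates only the 2 neoCM arrays, so the change stayed 1.76 and the block does not adjust for slide here.

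Hrc and Pln were late. Hrc was at -1.08 and -1.20 on day 3, where it did not pass (1.16 ± 0.48, adjusted p = 0.18), at -0.10 and -0.36 on day 5 (2.26 ± 0.48, adjusted p = 0.0023), and between 0.99 and 1.32 on days 7 to 14 (3.53 ± 0.48 on day 14, 11.6-fold, adjusted p = 1.9e-05). Pln was at -5.34 and -5.65 on day 3 and not well above background on either array of day 5. It was at -4.46 on both arrays of day 7, at -2.86 and -3.06 on day 10 and at -1.34 and -1.44 on day 14. The bound on the rise was 2.74-fold on day 7, 9.56-fold on day 10 and 9.95-fold on day 14 (adjusted p = 1.3e-05, 6.4e-06 and 9.2e-08). With normexp the log2 changes of Pln on these days were 1.07, 1.95 and 3.19, against 3.67, 3.89 and 5.32. Its day 14 arrays were still far below neoCM at 5.50.

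Jph2 barely followed. Its MGT arrays lay between -0.05 and 0.70 and its LacZ arrays between -1.41 and 0.19, and the change did not pass on days 3 to 10 (0.43, 0.10, 0.89 and 0.59, each ± 0.43, adjusted p = 0.77, 0.92, 0.22 and 0.46). It passed on day 14 (1.32 ± 0.43, adjusted p = 0.032), where LacZ was at -0.57 and -1.41. That call was lost with quantile normalization (adjusted p = 0.083), with normexp (0.06), in the authors' log2 values (0.093), without LacZ D14 replicate 2 (0.91, adjusted p = 0.29), and without either MGT D14 array (0.13 and 0.12).

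**Figure D2:**
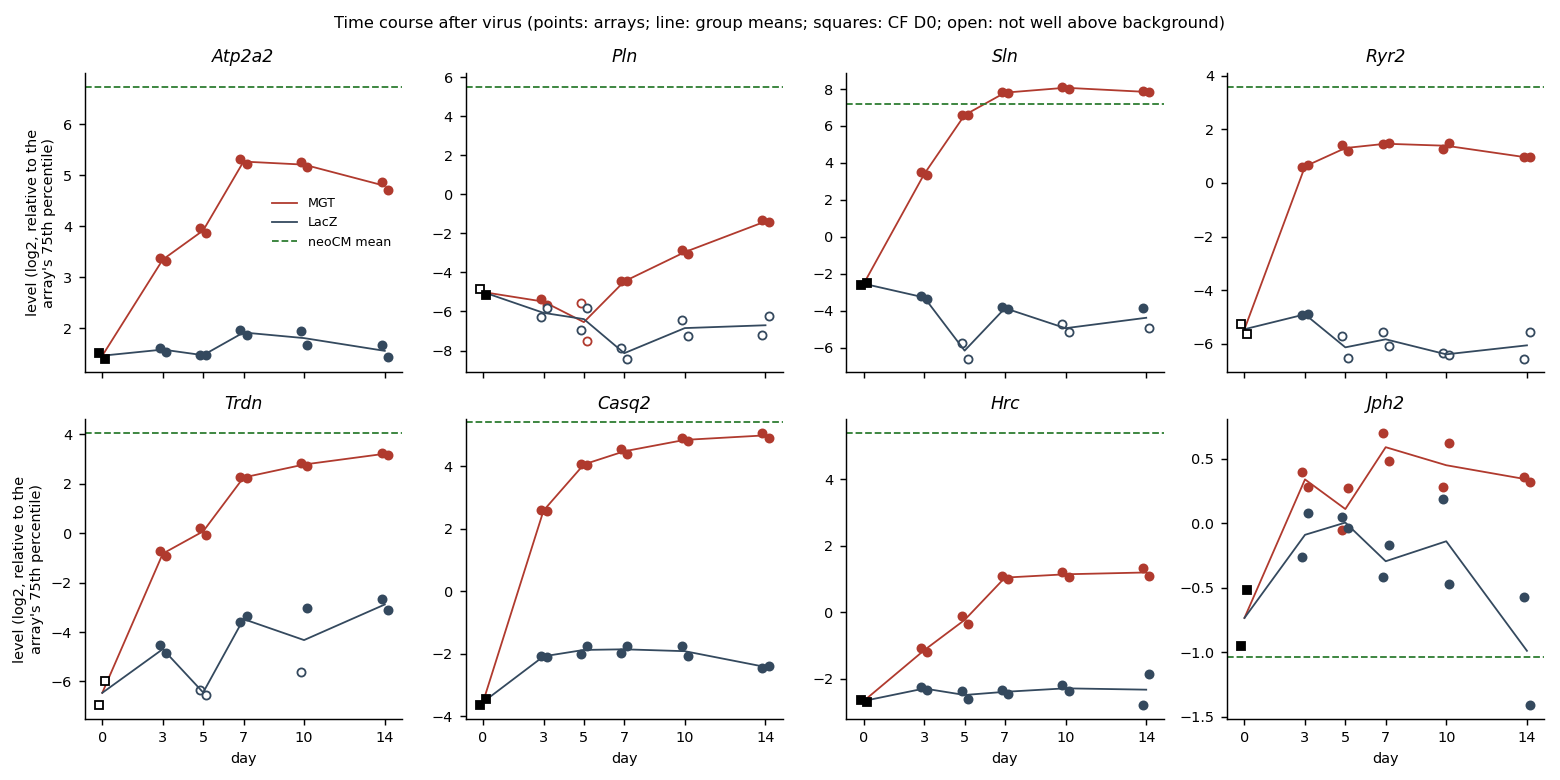
Level of each gene against day after virus (day on the x axis, log2 level on the y axis); points are arrays, lines join group means from the shared CF D0 arrays (squares), open symbols are not well above background and the dashed line is the neoCM mean. Sln was above the neoCM mean from day 7, Casq2 came close to it by day 14, and Pln and Hrc stayed well below it. Distances to this mean were not tested, and neoCM was scanned on another day than the MGT arrays.

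Whether the response itself grew was tested as MGT against LacZ on day 10 minus the same on day 3, for which 1.97% of all genes were called and 4 of the 8 calcium genes, all toward a larger response. Casq2, measured on every array of the 4 groups, grew by 2.10 ± 0.29 (adjusted p = 0.00027). Sln grew by 6.33 ± 0.79 (adjusted p = 8.7e-05) and Pln by 3.32 ± 0.68 (adjusted p = 0.0095), but LacZ D10 was not well above background for either gene, nor LacZ D3 for Pln, so these sizes rest in part on values under the detection limit. Pln was lost without LacZ D10 replicate 2, MGT D3 replicate 2 or LacZ D3 replicate 2 (adjusted p from 0.054 to 0.057). Trdn grew by 3.24 ± 0.81 (adjusted p = 0.038) by probe 2. Without LacZ D10 replicate 1, which was not well above background, Trdn grew by 1.93 and was not called. Its call was lost without any of the other MGT and LacZ arrays of these days but LacZ D10 replicate 2 (adjusted p from 0.092 to 0.16), and 2 genes were called without MGT D3 replicate 2 or LacZ D3 replicate 2. With slide as a fixed block the Trdn call was lost as well (adjusted p = 0.05). The change stayed 3.24, since that block separates only the 2 neoCM arrays and does not adjust for the slides of these days. Adjusted over probes in place of genes, none of the 3 Trdn probes passed: the growth was 1.01 ± 0.51 by probe 1 (adjusted p = 0.61), 3.24 ± 0.81 by probe 2 (0.053) and 2.25 ± 1.04 by probe 3 (0.53). Ryr2, Atp2a2, Hrc and Jph2 did not pass (adjusted p = 0.12, 0.45, 0.097 and 1).

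Markers of other cell types were also read on these arrays. Of the skeletal muscle markers, 8 of 9 were tested, and their summed log2 signal was 3.21 and 3.22 with MGT against 0.51 and 0.47 with LacZ on day 3, and 5.69 and 5.56 against 1.13 and 1.39 on day 14. The 8 fibroblast markers were well above background on all MGT and LacZ arrays, with medians of 5.63 to 6.34 with MGT and 6.44 to 6.82 with LacZ. The 6 macrophage markers were likewise above background on all of them, with a summed log2 signal between 3.86 and 7.25 with MGT and between 3.60 and 7.94 with LacZ, both highest on day 14. The part of these cells in the calcium-gene changes was not tested. Mef2c, which the virus delivers, was at 2.91 ± 0.08 (SD, n = 2) on day 3 of MGT and 0.01 ± 0.08 on day 14, against -3.87 with LacZ on day 3. Its probe cannot tell the viral from the endogenous transcript. Gata4 and Tbx5, delivered on the same transcript, differed much less from LacZ. On day 3 Gata4 was at 2.9 with MGT and 2.68 with LacZ, and Tbx5 at -1.36 and -1.75. On day 14 Gata4 was at 2.81 with MGT and 2.44 with LacZ, and Tbx5 at -1.73 and -1.12. Myh6, the alpha myosin heavy chain, was at 2.32 ± 0.14 on day 3 of MGT and 7.18 ± 0.12 on day 14. With LacZ it was at 2.17 ± 0.01 on day 3, the day on which Ryr2, Sln and Casq2 already stood far above LacZ. Other sarcomere genes were also higher with MGT than with LacZ on day 3. Actc1 was at 6.91 against 2.71, Tnnt2 at 7.53 against 5.47 and Actn2 at -2.21 against -3.38.

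The control cells changed too. In LacZ D14 against CF D0, 2 of the 8 genes were called higher and 2 lower, with 27.7% of all genes called. Trdn was higher with a bound of 6.45-fold (adjusted p = 4e-05), from below background to -2.66 and -3.11. With normexp the Trdn change was 1.75, against 3.58 in the main fit. Casq2 was higher by 1.12 ± 0.21 (adjusted p = 0.00016). Sln was lower by 1.84 (adjusted p = 0.01), with 1 of 2 LacZ arrays above background, and Pln by 1.70 (adjusted p = 0.0066), with 1 of 2 CF D0 arrays and no LacZ array above background. Apart from Trdn these calls were fragile: with normexp Casq2 changed by 0.86 and Pln by -0.76, both under 2-fold, and Sln was lost without LacZ D14 replicate 2 (adjusted p = 0.14) or CF D0 replicate 2 (0.051). Pln was also lost with array weights (adjusted p = 0.11), without LacZ D14 replicate 1 (0.092) and without CF D0 replicate 1 (0.051).

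At 4 weeks the iCM carried an uneven set of calcium genes when set against neoCM. Of the 8 genes, 5 were called lower and 3 did not pass, with 38.9% of all genes called, and the median change was -1.89 against -0.05 over all genes. The widest gaps were in the pump's inhibitor and a store protein. Pln was at -1.59 and -1.32 in iCM against 5.50 on both neoCM arrays (-6.96 ± 0.48, 124-fold, adjusted p = 3.9e-10). Hrc was at -0.38 and -0.58 against 5.40 (-5.88 ± 0.48, 58.9-fold, adjusted p = 3.6e-09).

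The channel, the pump and the main buffer were lower by a smaller factor. Ryr2 was at 1.45 and 1.51 against 3.52 and 3.64 (-2.10 ± 0.49, 4.29-fold, adjusted p = 0.0011). Atp2a2 was at 4.63 and 4.78 against 6.63 and 6.83 (-2.02 ± 0.54, 4.06-fold, adjusted p = 0.0032). Casq2 was at 3.52 and 3.77 against 5.33 and 5.49 (-1.77 ± 0.21, 3.41-fold, adjusted p = 5.2e-07).

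Sln, Trdn and Jph2 did not pass. Sln was at 7.09 and 6.71 against 7.22 and 7.15 (-0.28 ± 0.56, adjusted p = 0.68), Trdn at 3.40 and 3.37 against 4.13 and 3.98 (-0.67 ± 0.58, adjusted p = 0.33), and Jph2 at -1.16 and -1.45 against -1.15 and -0.93 (-0.27 ± 0.43, adjusted p = 0.61). With 2 arrays a side this does not show that they were equal. The 5 calls held in each alternative tried. With slide as a block, which sets iCM against the neoCM array of the same slide, the changes were -6.96 for Pln, -5.88 for Hrc, -2.16 for Ryr2, -2.12 for Atp2a2 and -1.85 for Casq2.

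Cardiomyocyte markers as a whole were also lower in iCM: the summed log2 signal of the 11 was 9.14 to 9.40, against 11.47 to 11.59 in neoCM. The 5 ventricular markers stood at -0.01 and 0.28, against 10.03 and 10.24, and the 5 atrial markers at 7.79 and 8.11, against 9.89 and 10.04. The summed signal of the 6 macrophage markers was 6.37 to 6.4 in iCM, against 1.77 to 1.84, and the median of the 8 fibroblast markers was 5.52 and 5.67, against 6.12 and 6.42. The part of these markers in the calcium-gene differences was not tested.

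Against neoCF, the fresh fibroblast preparation, 6 of the 8 genes were higher in iCM and 1 was lower, with 37% of all genes called. Sln was higher by 6.27 ± 0.56 (adjusted p = 1.5e-08) and Trdn by 5.25 ± 0.58 (adjusted p = 2.7e-07). Ryr2, Casq2 and Atp2a2 were higher by 3.37 ± 0.49, 3.14 ± 0.21 and 2.49 ± 0.54. Pln was lower than in neoCF (-1.66 ± 0.48, adjusted p = 0.0062), a call lost without neoCF replicate 1 (adjusted p = 0.054), and Hrc did not pass (-1.10 ± 0.48, adjusted p = 0.055). Jph2 was higher by 1.19 ± 0.43 (adjusted p = 0.025), and was lost without iCM replicate 1 (0.12), iCM replicate 2 (0.051) or neoCF replicate 1 (0.12) and, at 0.91, with the percentile taken over probes detected on all arrays.

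Set beside the day 14 cells, 3 of the 8 genes were lower in the 4-week iCM and none was called higher by the probe that stands for the gene, with 20.4% of all genes called. Casq2 fell by 1.34 (-1.34 ± 0.21, adjusted p = 4.6e-05), Jph2 was at -1.16 and -1.45 against 0.36 and 0.32 (-1.64 ± 0.43, adjusted p = 0.0057) and Hrc at -0.38 and -0.58 against 1.32 and 1.08 (-1.68 ± 0.48, adjusted p = 0.0093). Pln was at -1.59 and -1.32 against -1.34 and -1.44 (-0.07 ± 0.48, adjusted p = 0.93). Without iCM replicate 2 Jph2 and Hrc were lost (adjusted p = 0.053 and 0.065), which left 1 call, and Hrc was lost without MGT D14 replicate 1 (0.065). The 2 groups were scanned on different days on different slides, so scan and group cannot be told apart.

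The cardiomyocytes from pluripotent cells had a different uneven set. Against neoCM, 7 of the 8 genes were lower in iPSC1-CM D13 (37% of all genes called). In iPSC2-CM D9 4 were lower and 1 was higher (41.4% called), and in iPSC2-CM D29 7 were lower (38.5% called). In iPSC2-CM D9 Sln and Casq2 were far lower: Sln was at -4.95 and -6.4, with 1 of 2 arrays above background (-12.86 ± 0.56, adjusted p = 4.2e-13), and Casq2 at -4.59 on both arrays (-10.00 ± 0.21, 1020-fold, adjusted p = 8.8e-18), below its level in CF D0. In the same cells Hrc was at 5.16 and 5.25 against 5.40 (-0.19 ± 0.48, adjusted p = 0.75), and Ryr2 (-0.83 ± 0.49, adjusted p = 0.15) and Atp2a2 (-0.88 ± 0.54, adjusted p = 0.16) did not pass. Pln was at -0.18 and -0.81 (-5.99 ± 0.48, adjusted p = 3e-09). Jph2 was highest of all 17 groups there, at 0.71 and 0.92 (1.85 ± 0.43 above neoCM, adjusted p = 0.0011).

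In iPSC1-CM D13, 7 of the genes were called lower and Jph2 did not pass (-0.26 ± 0.43, adjusted p = 0.63). Pln was at 2.13 and 2.38 (-3.24 ± 0.48 from neoCM, adjusted p = 1.2e-05) and Hrc at 3.13 and 3.18 (-2.25 ± 0.48, adjusted p = 0.00051). Casq2 was at -0.76 and -0.71 (-6.15 ± 0.21, adjusted p = 1.8e-14) and Sln at 0.97 and 0.98 (-6.21 ± 0.56, adjusted p = 1.8e-08). The 2 lines differ in day as well as in line, so these cannot be told apart.

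**Figure D3:**
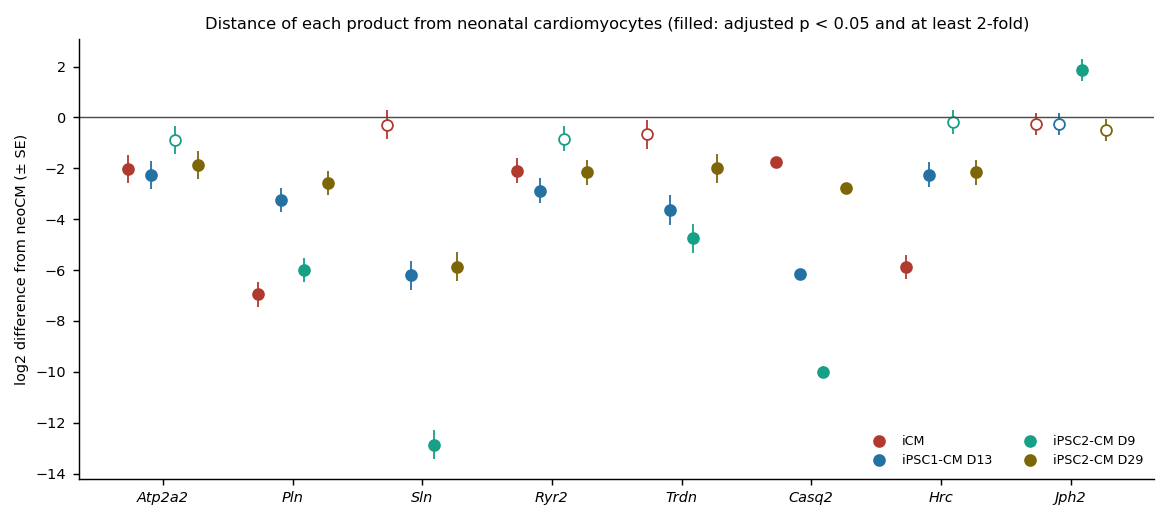
Difference of each product from neoCM in log2 units, with bars for the standard error; filled points passed the test and open points did not. Of the 4 products by fitted change, iCM lay nearest neoCM for Sln, Trdn and Casq2 and farthest for Pln (-6.96) and Hrc (-5.88). iPSC2-CM D9 lay nearest for Hrc (-0.19) and farthest for Sln (-12.86) and Casq2 (-10.00). Compared directly, iCM and iPSC2-CM D9 did not pass for Pln. Nor did iCM and iPSC2-CM D29 for Trdn by the probe that stands for the gene.

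Direct comparison placed iCM above the early iPSC cells in Sln, Casq2 and Trdn and below them in Hrc. Against iPSC2-CM D9, where 51.1% of all genes were called, Sln was higher by 12.57 ± 0.56 with 1 of 2 iPSC arrays above background (adjusted p = 3.1e-13), Casq2 by 8.23 ± 0.21 (adjusted p = 1.2e-16) and Trdn by 4.09 ± 0.58 (adjusted p = 3.6e-06). Hrc was lower by 5.69 (-5.69 ± 0.48, 51.6-fold), Jph2 by 2.12 (-2.12 ± 0.43, adjusted p = 0.00025) and Ryr2 by 1.27 (-1.27 ± 0.49, adjusted p = 0.028). Pln (-0.97 ± 0.48, adjusted p = 0.081) and Atp2a2 (-1.14 ± 0.54, adjusted p = 0.065) did not pass. The Ryr2 call was lost without iCM replicate 1 (adjusted p = 0.09), iCM replicate 2 (0.076) or iPSC2-CM D9 replicate 1 (0.13).

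Against iPSC1-CM D13 (42.2% called), Sln was higher in iCM by 5.93 ± 0.56 (61.0-fold), Casq2 by 4.38 ± 0.21 (20.8-fold) and Trdn by 2.97 ± 0.58 (7.84-fold, adjusted p = 0.00017), and Pln (-3.71 ± 0.48, 13.1-fold) and Hrc (-3.64 ± 0.48, 12.5-fold) were lower. Ryr2, Atp2a2 and Jph2 did not pass (0.79 ± 0.49, 0.25 ± 0.54 and -0.01 ± 0.43). iCM and the iPSC groups were scanned on different days, so scan day and group cannot be told apart. The median of the 8 fibroblast markers was 3.80 and 3.85 for iPSC1-CM D13 and 0.04 and -0.51 for iPSC2-CM D9, against 5.67 and 5.52 for iCM. The summed log2 signal of the macrophage markers was 6.37 to 6.4 in iCM, 0.38 to 0.44 in iPSC1-CM D13 and 0.95 to 1.41 in iPSC2-CM D9. That of the ventricular markers was 8.27 and 8.12 for iPSC1-CM D13 and 9.88 and 10.36 for iPSC2-CM D9, against -0.01 and 0.28 for iCM. The part of these markers in the differences was not tested. Quantile normalization moved the median over all genes from -0.26 to 0.03 for iPSC2-CM D9, from -0.17 to 0.03 for iPSC1-CM D13 and from -0.22 to 0.08 for iPSC2-CM D29, shifts that are small beside the changes given, except for Casq2 against iPSC2-CM D29 below.

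The day 29 cells need each array shown. Atp2a2 was at 3.26 and 6.47, Ryr2 at 0.14 and 2.72, Hrc at 1.89 and 4.59, Trdn at 1.22 and 2.90, Jph2 at -2.62 and -0.43, Sln at 2.57 and 0.07, Casq2 at 2.14 and 3.15 and Pln at 2.69 and 3.15. The first array was thus the lower for 7 of the genes and the higher for Sln, and it was also the array with the fibroblast markers at a summed log2 signal of 8.13, against 3.42 on the second. Pln, Casq2, Sln and Trdn were higher than in iPSC2-CM D9 on both arrays. The fit gave 3.41 ± 0.48 for Pln (adjusted p = 1.3e-05), 7.23 ± 0.21 for Casq2 (adjusted p = 1.9e-14), 6.99 ± 0.56 for Sln (adjusted p = 8.4e-09) and 2.76 ± 0.58 for Trdn (adjusted p = 0.00074), with 24.3% of all genes called. Jph2, Hrc and Ryr2 were lower (-2.34, -1.97 and -1.32, adjusted p = 0.00025, 0.0026 and 0.037). Without replicate 1 of day 29, Ryr2 changed by -0.03 and Hrc by -0.62, so both calls were lost. Ryr2 was also lost without iPSC2-CM D9 replicate 1 (adjusted p = 0.15), without replicate 2 of it (0.074) and with quantile normalization (0.051).

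These standard errors pool the spread of all groups, and with array weights only 2 of the 8 genes were called between day 29 and day 9, 2 between day 29 and neoCM and 2 between iCM and day 29. Against neoCM, 3 genes remained without replicate 1 of day 29, where Atp2a2 changed by -0.26 in place of -1.87 and Hrc by -0.81 in place of -2.16. Between iCM and day 29 (42.9% called), 4 genes were called, and 8 without replicate 2 of day 29. Pln was lower in iCM by 4.38 (-4.38 ± 0.48, adjusted p = 2.3e-07) and Hrc by 3.72 (-3.72 ± 0.48, adjusted p = 1.7e-06), and Sln was higher by 5.58 ± 0.56 (adjusted p = 6.2e-08). Trdn did not pass by probe 2, which stands for the gene (1.33 ± 0.58, adjusted p = 0.051). Adjusted over probes, Trdn was called higher in iCM by probe 1 (2.08 ± 0.36, adjusted p = 5.7e-05) and probe 3 (2.26 ± 0.73, 0.012). Casq2 was higher by 1.00 ± 0.21, at the 2-fold limit, and was under it after quantile normalization (0.93), in the authors' log2 values (0.77), with normexp (0.80), with the percentile over detected probes (0.91), without iCM replicate 2 (0.88) and without replicate 1 of day 29 (0.49).

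The probes for Trdn and Atp2a2 were read singly, with adjusted p over 43379 probes. Trdn probes 1 and 2, whose sequences stand above, were both called higher on each MGT day, by different amounts: MGT against LacZ gave 4.42 ± 0.36 by probe 1 on day 3 and 5.42 ± 0.36 on day 14, and 3.86 ± 0.57 and 6.10 ± 0.57 by probe 2. Probe 3 did not follow early. Its signal stayed near background in MGT D3 and D5, CF D0, neoCF, iPSC1-CM D13 and iPSC2-CM D9, where no array passed, and stood between -5.10 and -4.49 on the arrays of MGT D7 to D14. With LacZ it passed on a single array, replicate 1 of day 7, at -4.61. MGT against LacZ by probe 3 was called higher on day 10 (2.31 ± 0.73, adjusted p = 0.048). It was not called on day 7 (1.45 ± 0.73, adjusted p = 0.29) or day 14 (1.90 ± 0.73, 0.072). Probe 3 was at -3.71 and -3.09 in neoCM and at -2.68 and -2.67 in iCM, its highest values. By probe 3 iCM was higher than MGT D14 by 2.12 ± 0.73 (adjusted p = 0.034), whereas probe 1 gave 0.64 ± 0.36 (adjusted p = 0.19) and probe 2 gave 0.17 ± 0.57 (adjusted p = 0.86). The difference between probes was not itself tested.

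**Figure D4:**
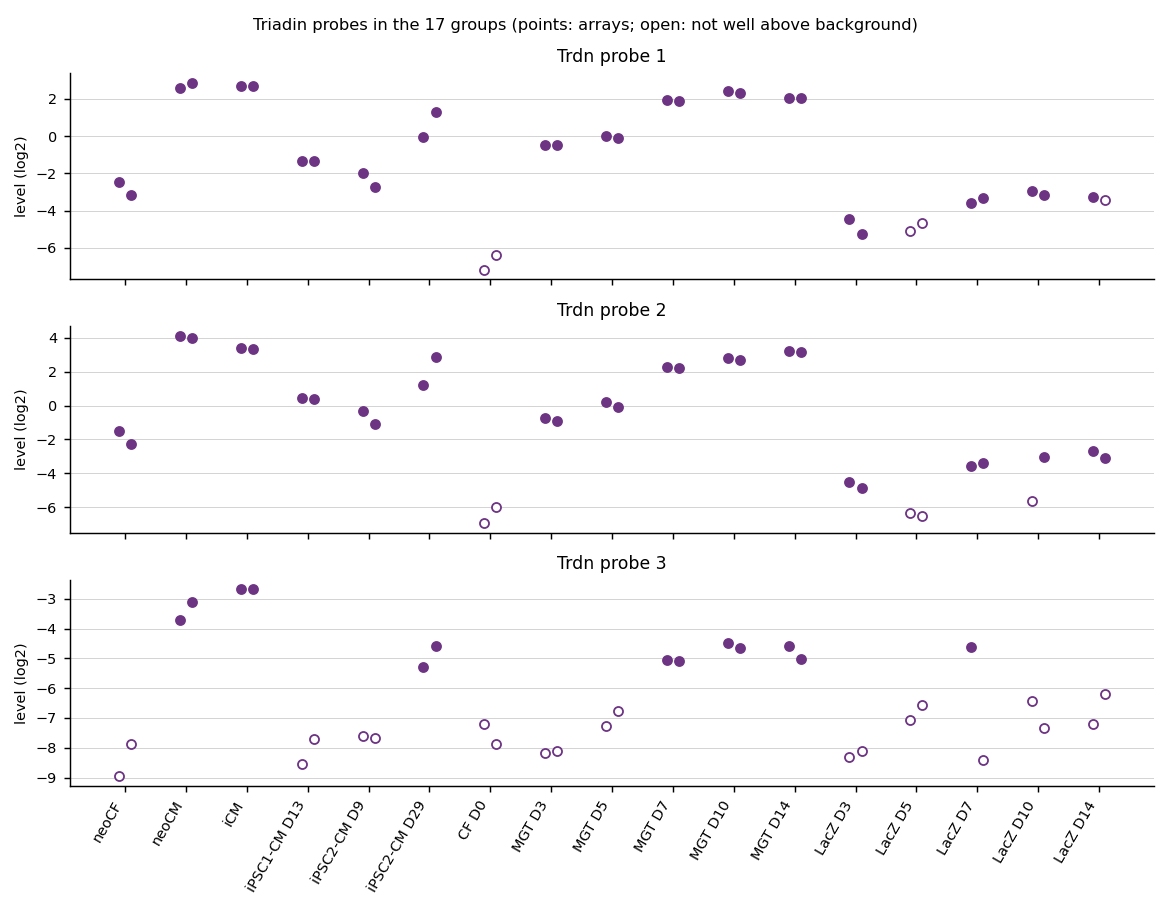
Level of each of the 3 Trdn probes on all arrays of the 17 groups, log2 relative to the array's 75th percentile; points are arrays and open points are not well above background. Probes 1 and 2 were raised from MGT D3 on, whereas probe 3 was above background from MGT D7 on and highest in iCM (-2.68 and -2.67). Against LacZ, probe 3 was called higher on day 10 only (adjusted p = 0.048).

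Of the Atp2a2 probes, the one that stands for the gene above is assigned to 1 of the coding variants and a noncoding record, and the one whose sequence is printed to both coding variants. The printed probe gave the same directions with smaller sizes under MGT, 0.89 ± 0.57 on day 3 (adjusted p = 0.59), 1.52 ± 0.57 on day 5 (adjusted p = 0.11) and 2.34 ± 0.57, 2.28 ± 0.57 and 2.22 ± 0.57 on days 7, 10 and 14 (adjusted p = 0.0088, 0.01 and 0.0075). It put iCM below neoCM by 2.59 (-2.59 ± 0.57, adjusted p = 0.00072). It also called iCM lower than iPSC2-CM D9 (-1.61 ± 0.57, adjusted p = 0.017), where the other probe did not pass (-1.14 ± 0.54, 0.066). The signs differed in CF D0 against neoCF (0.54 by the printed probe, -0.76 by the other) and in LacZ D14 against CF D0 (-0.92 and 0.1). Neither probe passed in these comparisons.

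Across the 17 groups the 8 genes fell into different patterns, described here by correlations of group means that share arrays and scaling. Ryr2 and Atp2a2 went together (r = 0.95), as did Sln and Casq2 (0.95) and Pln and Hrc (0.87). Sln with Hrc (0.39) and Casq2 with Hrc (0.35) went less so. The pairs were not separate sets. Hrc was at 0.88 with Atp2a2 and 0.84 with Ryr2. Trdn was at 0.9 with Atp2a2, 0.89 with Ryr2 and 0.85 with Sln. Jph2 lay between -0.46 and 0.16 with each of the others. Ordered by level, neoCM was first for Ryr2, Atp2a2, Pln, Casq2, Trdn and Hrc, MGT D10 was first for Sln and iPSC2-CM D9 for Jph2. Groups next to each other in this order often had overlapping arrays: of 16 neighbouring pairs, 12 overlapped for Jph2, 9 for Ryr2, 8 for Atp2a2, 7 each for Sln and Hrc, 5 each for Pln and Trdn and 4 for Casq2. For Ryr2 the arrays of iCM, MGT D7, iPSC2-CM D29, MGT D10 and MGT D5 ran into each other, and so did CF D0 and LacZ D5 to D14 at the bottom. The distance from the lowest to the highest group mean was 10.00 for Casq2, 8.07 for Hrc, 5.27 for Atp2a2 and 3.32 for Jph2. For Sln, Pln, Trdn and Ryr2 the lowest group was not well above background on either array, so no distance is given.

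The genes nearest in pattern were found over the 17 group means. For Ryr2 they were Myl7 (an atrial myosin light chain, r = 0.986), Ttn (titin, 0.980) and Sptb (a spectrin, 0.979), and for Atp2a2 Cap2 (0.981), Pgam2 (the muscle phosphoglycerate mutase, 0.979) and Trim63 (0.979). For Sln they were Cdh13 (0.974), Myom2 (an M-band protein, 0.956) and Chst3 (0.955), and for Casq2 Cdh13 (0.957), Sln itself (0.953) and Mlf1 (0.949). Pln was nearest Cox8b (a muscle cytochrome oxidase subunit, 0.971), Mhrt (a noncoding RNA of the Myh7 locus, 0.965) and Ncan (0.954). Hrc was nearest Hspb3 (0.977), Atcayos (0.973) and Lmod3 (0.969), Trdn nearest Ephx4 (0.943), Sptb (0.941) and Rab3b (0.935), and Jph2 nearest Acta1 (skeletal alpha actin, 0.911), Hif1a (0.882) and E2f3 (0.865).

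A wider list of 36 other calcium-handling genes, of which 35 were tested, moved less uniformly. In neoCM against neoCF 17 were higher and 4 lower, where 31.7% of all genes were called, and in iCM against neoCM 5 were higher and 16 lower, where 38.9% were. The median change against neoCM was -0.08 for the 18 genes of the junction and release, -0.81 for the 8 of uptake and its regulation and -1.23 for the 9 of the surface membrane and store refilling. Under MGT 5 were higher on day 3 with none lower, and 7 higher with 1 lower on day 14, where 5.04% and 13.2% of all genes were called.

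In neoCM against neoCF the largest rises were Srl (sarcalumenin, a calcium-binding protein of the store, 5.90 ± 0.36), Casq1 (the skeletal calsequestrin, 5.52 ± 0.44) and Ryr3 (4.62 ± 0.78). The largest falls were Itpr3 (an inositol trisphosphate receptor, -3.03 ± 0.22), Bin1 (-1.69 ± 0.32) and Fkbp1a (-1.30 ± 0.11), the last of which was -0.69 with the mean of its probes. Rrad encodes a small GTPase that restrains the L-type calcium channel. Under MGT Rrad was higher by 3.92 ± 0.49 on day 3 and 6.33 ± 0.49 on day 14 (adjusted p = 1.6e-05 and 1.1e-08). Srl was higher by 1.41 ± 0.36 on day 3 (adjusted p = 0.016), a call lost when any of the 4 arrays was left out and, at 0.80, with normexp. It was at least 103-fold higher on day 10 and at least 90.8-fold on day 14 (adjusted p = 6.3e-11 and 4e-11).

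Casq1 was higher by 1.72 ± 0.44 on day 3 (adjusted p = 0.015), was lost there in 6 alternatives, and was at least 5.03-fold higher on day 14. Atp2a1, the skeletal pump, passed on day 7 (2.51 ± 0.67, adjusted p = 0.013) and was lost when any of the 4 arrays was left out. On day 14 Ryr3 was lower (bound 5.06-fold, adjusted p = 0.029), with 1 LacZ array and no MGT array above background. That call was lost when any of the 4 arrays was left out and, at -0.73, with normexp.

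In iCM against neoCM the largest falls were Casq1 (-7.40 ± 0.44, adjusted p = 4.1e-11), Ryr3 (-6.64 ± 0.78, 1 of 2 iCM arrays above background) and Ppp1r1a (inhibitor-1 of the phosphatase that acts on phospholamban, -5.69 ± 0.38, 1 of 2 iCM arrays above background). The largest rises were Stim1, the store's calcium sensor for refilling (2.53 ± 0.20, adjusted p = 2.2e-09), Tmem38b (2.37 ± 0.49) and Bin1 (1.89 ± 0.32). Against the iPSC groups, Casq1 (-6.03 and -6.36) and Ppp1r1a (-2.99 and -5.32) were again lower in iCM than in iPSC1-CM D13 and iPSC2-CM D9, and S100a1, a calcium-binding activator of the pump, was higher (3.19 ± 0.19 and 2.27 ± 0.19). Stim1 was higher in iCM than in iPSC1-CM D13 (2.67 ± 0.20) and iPSC2-CM D29 (2.31 ± 0.20), and Mrln, the micropeptide myoregulin, higher than in iPSC2-CM D9 (2.12 ± 0.20) and D29 (2.50 ± 0.20). Ryr1, not well above background in iCM, was at least 3.50-fold lower than in iPSC1-CM D13, a call lost with quantile normalization, normexp and the authors' values, and at least 15.5-fold lower than in iPSC2-CM D29. Cacnb2, a subunit of the L-type channel, was lower than in D9 (-4.98 ± 0.54) and D29 (-3.11 ± 0.54). With array weights the D29 calls of Mrln, Ryr1 and Cacnb2 were lost (adjusted p = 0.11, 0.48 and 0.086). In the control cells, LacZ D14 against CF D0, S100a1 (3.07 ± 0.19), Atp2a3 (3.11 ± 0.61) and Speg (1.98 ± 0.12) were higher. Ryr1 (-2.53 ± 0.66), Ppp1r1a (-2.33 ± 0.38) and Srl (-1.90 ± 0.36) were lower there. The Ryr1 call was lost with array weights, and its change was -0.96 without CF D0 replicate 2. With normexp the Srl change was -0.96, under 2-fold.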

How the data were processed

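RNA of 34 samples was measured on single-colour arrays. The deposited scanner files hold spot intensity, per the file headers: Agilent Feature Extraction 10.7.3.1 adjusted the background and detrended each array. A further table, of log2 values, was deposited by the authors (column medians 7.49 to 7.52), for which limma is named per the submitters' processing notes; it correlated with log2 intensity at 0.982 or more, its exact scaling and centring are not given in the sources used here, and it served as an alternative.

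From the processed intensity, outlier spots were removed, log2 taken, spots of a probe averaged and each array's 75th percentile subtracted. Probes were named through RefSeq (GRCm38.p6): 26056 matched on accession, 3200 on the current symbol and 930 on a former one, and 25495 stayed unnamed. Probes had to be well above background on each array of some group, and a gene was represented by its brightest probe on average (43382 probes kept, 19412 genes). One limma fit (version 3.58.1, R 4.3.3) with a mean per group, 17 residual degrees of freedom, eBayes and Benjamini-Hochberg gave all tests. The fit was tested on simulated data. Promoter sequences are RefSeq's, and probe positions are those of the array annotation (mm9). Python 3.11.15, numpy 2.4.6, pandas 2.3.3 and matplotlib 3.10.9 were used.

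The members and gene lists were chosen with earlier results of these data known. The text names the 8 genes everywhere, up to 3 largest called rises and falls of the other calcium genes in a comparison, and the 3 genes nearest in pattern; it names fewer where a value was under background on both sides. Alternatives were quantile normalization, normexp, the authors' values, another percentile, no filter, the mean of a gene's probes, replicate and slide blocks, array weights and leaving out each array; those for the other calcium genes were added after seeing the data. Same-numbered arrays showed little common deviation: over 136 pairs of groups the correlations ran from -0.13 to 0.17. The main fit therefore did not pair samples by number. The check cannot exclude a shared source whose effect is small beside the noise of the arrays. Precision is limited by the number of arrays.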

Additional observations from a re-analysis of the deposited data

Results flagged for a closer look

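The response to MGT, measured against LacZ, was larger on day 10 than on day 3 for 4 of the 8 genes. This was a test of the difference itself, for which 1.97% of all genes were called. The growth was 6.33 for Sln, 3.32 for Pln, 3.24 for Trdn and 2.10 for Casq2 on the log2 scale. Casq2 was well above background on each of the 8 arrays involved. The sizes for Sln, Pln and Trdn include LacZ arrays under the detection limit. Pln grew by 2.89 without LacZ D10 replicate 2, 3.16 without MGT D3 replicate 2 and 3.09 without LacZ D3 replicate 2. Its call was lost each time. Without LacZ D10 replicate 1, which was under the limit, Trdn grew by 1.93. The Trdn call was lost when p-values were adjusted over probes. It was also lost with slide as a fixed block, which does not adjust for slide in this comparison. Groups of 2 arrays were not tested for single arrays that stand apart.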

How the results depend on the processing

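Each called change of the 8 genes was recomputed under the alternatives: of 1472 values, 1400 kept their direction and call, 72 kept the direction and lost the call, and none changed direction. For the other calcium genes named, these were 647, 42 and 0 of 689. Leaving out an array ended 43 calls, array weights 13, normexp 4 and quantile normalization 3. Slide as a fixed block ended 2 of 52 (Atp2a2 on day 3 and the growth of the Trdn response) and as a random block none of 60. The fixed block had a term for slide 1 alone, which held only neoCM replicate 1. It therefore adjusts only comparisons with neoCM, and for the others a kept or lost call says nothing of slide. The replicate number as a block ended 1 call (Atp2a2 on day 3, adjusted p = 0.054), leaving 4 of 5 genes there, and changed no other. With array weights the number of the 8 genes called was 2 for iCM against iPSC2-CM D29, 2 for D29 against neoCM, 2 for D29 against D9 and 7 for the growth of the MGT response; with normexp it was 2 for LacZ D14 against CF D0. Leaving out 1 array gave 3 to 8 genes for iCM against D29, 3 to 8 for D29 against neoCM, 5 to 8 for D29 against D9, 1 to 3 for iCM against MGT D14 (1 without iCM replicate 2) and 2 to 3 for the growth of the response (2 without MGT D3 replicate 2 or LacZ D3 replicate 2). Under normexp, which raises dim values, the log2 changes were 0.29 to 1.19 times the main ones (median 0.95). Counts over all genes moved by more than 1.5 times with array weights in the D29 comparisons (2101 for 8325 against iCM, 1475 for 7477 against neoCM, 489 for 4710 against D9) and on day 3 of MGT (1800 for 979), with normexp on day 14 of MGT (1493 for 2558) and for iCM against MGT D14 (2584 for 3959), without the filter on day 14 (4751), and for the growth of the response (1200 with array weights, and 233 to 245 in several fits without 1 array, for 382). Low signal limits Pln in LacZ and early MGT cells and Sln, Ryr2 and, on some arrays, Trdn in LacZ cells.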
